A study of Drosophila melanogaster with 6 samples.

Results

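The actin genes of Drosophila are 6 of the 13395 genes in the count table: Act5C, Act42A, Act57B, Act79B, Act87E and Act88F, taken as the rows whose gene name was one of these symbols. Their levels were measured by RNA sequencing in hemocytes, the blood cells of the fly, of which most are macrophages called plasmatocytes. The prepupal group held 3 libraries from white prepupae and the larval group 3 libraries from wandering third-instar (L3) larvae. All animals carried Hml-GAL4.delta and UAS-GFP, so that the hemolectin (Hml) driver marked cells with GFP, and only GFP-positive cells were sorted and sequenced. The study asked which genes change when quiescent larval macrophages become motile at the onset of metamorphosis. Nothing in the labels says whether the 3 libraries of a stage came from separate cohorts of animals, so every p-value measures the spread between these libraries, which may be technical.

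Actin is the protein of the thin filaments that push out lamellipodia in migrating cells and that slide along myosin in muscle. Act5C and Act42A encode the cytoplasmic actins, which are made in most fly cells. The other 4 genes encode muscle actins: Act57B and Act87E are used in the larval body wall muscles, Act79B in adult muscles such as the jump muscle of the thorax, and Act88F in the indirect flight muscles.

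The 6 genes encode proteins of the same length, 376 residues, from 1131 coding bases each. They differ in the exons around the coding sequence. On the dm6 genome, Act5C (FBgn0000042) lies on chromosome X (plus strand, 5900861 to 5905399). Its 5 transcripts have 2 exons each, run from 1637 to 2863 bases in length and differ in the first exon and in the end of the 3′ UTR. Act42A (FBgn0000043) lies on the minus strand of arm 2R from 6013910 to 6015689, with 1 transcript of 2 exons and 1626 bases. Act57B (FBgn0000044) lies on arm 2R from 20944021 to 20946431 and Act79B (FBgn0000045) on arm 3L from 21985210 to 21987190. Act87E (FBgn0000046) lies on arm 3R from 13425983 to 13428375 and Act88F (FBgn0000047) on the same arm from 15439969 to 15442177. Untranslated exons made up 62.0% of the exonic bases of Act5C and between 29.1% and 43.1% of those of the other 5 genes. Act57B shares 96 exonic bases with snoRNA:660, and Act87E shares 60 with lncRNA:CR45591 on the opposite strand, and neither RNA has a row in the count table. Because the coding sequences of actin genes are close copies of each other and the reads were only 50 bases long, part of the reads could fit more than 1 gene. The sources used here do not say how such reads were counted, so the split between the genes carries an uncertainty that was not tested.

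The unit of level is CPM, which is a gene's reads for each 1000000 reads counted in the library, with library sizes adjusted by TMM factors. Levels of different genes are compared as CPM per kb of exonic length. Log2 fold changes are prepupal over larval, from edgeR's quasi-likelihood test, and genes with an FDR (the p adjusted by the Benjamini-Hochberg method over every tested gene) below 0.05 were called. Of the 6 actin genes, 5 passed the filter on low counts, and 1 of these, Act5C, was called. Over all 7914 tested genes, 53.9% were called, 26.6% as higher and 27.3% as lower in prepupal hemocytes, so the actin genes were not called more often than the genes as a whole.

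The libraries held between 19228352 and 22110219 counts in prepupal and between 21038176 and 25958543 in larval hemocytes. Hml, the gene whose promoter drives the GFP, was itself lower in prepupae (log2 fold change -5.05, FDR = 2.5e-05, edgeR). The plasmatocyte markers were found in every library, but 7 of 8 were called lower and 1, crq, was called higher in prepupae. Among all tested genes, 27.3% were called lower and 26.6% higher, which is the background for each marker list here. The plasmatocyte list summed to between 4165 and 6716 CPM in prepupal and between 16473 and 24913 CPM in larval libraries. All 4 crystal cell markers were called lower (summed 555 to 1472 CPM in prepupal and 2049 to 3211 CPM in larval libraries). Without prepupal replicate 3 or without larval replicate 3, only 2 of them were called. With each library's trend of counts with gene length removed, 3 were called. Of the 4, lz and peb had as few as 3 and 8 counts in a library. Of 4 tested lamellocyte markers, PPO3 was higher and cher was lower (list sum 520 to 642 CPM in prepupal and 1001 to 1398 CPM in larval libraries). Of 5 tested fat body markers, 2 were higher and 1 lower (27.0 to 34.8 CPM in prepupal and 27.8 to 34.0 CPM in larval libraries). The calls of Fbp1 (higher) and Lsp1gamma (lower) were lost in several other fits, among them those without prepupal replicate 2 or larval replicate 1. None of 6 tested salivary gland markers was called (6.52 to 9.82 CPM in prepupal and 6.4 to 9.02 CPM in larval libraries), nor was the 1 tested neuron marker (list sum 2.57 to 3.32 CPM in prepupal and 2.77 to 5.58 CPM in larval libraries).

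**Figure D1:**
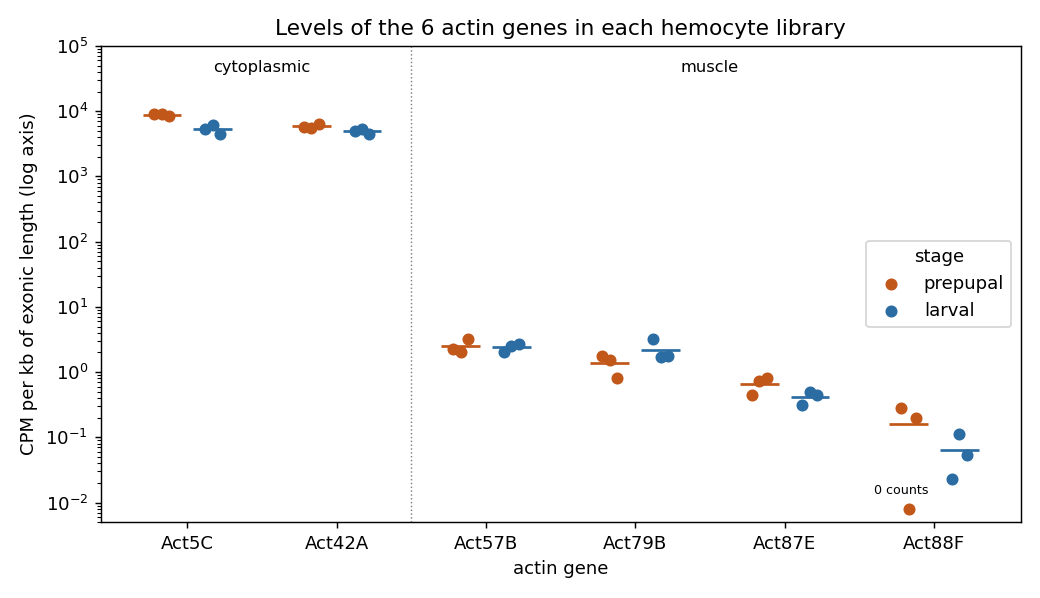
Levels of the 6 actin genes as CPM per kb of exonic length, on a log axis, with 1 point per library, prepupal left of larval, and a line at the mean of the 3 libraries. The cytoplasmic genes sit at 4442 CPM per kb or more in every library and the muscle genes at 3.26 or less, and the library without any Act88F count is drawn at the bottom of the axis.

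The cytoplasmic actins were among the most abundant messages of these cells in both stages, and the muscle actins were far lower. Ranked by CPM per kb, Act5C was number 5, 6 and 5 in the prepupal libraries and number 5 in every larval library. Act42A was number 9, 15 and 7 in the prepupal libraries, against 6, 7 and 6 in the larval ones. Of the muscle genes, Act57B ranked from 5835 to 6264 in the prepupal libraries and from 6280 to 6535 in the larval ones, near the middle of the 13395 genes. All 6 genes together took 3.33%, 3.27% and 3.43% of the counts of prepupal replicates 1, 2 and 3, against 2.56%, 2.80% and 2.27% in larval replicates 1, 2 and 3. The share of actin in the library was higher in each prepupal library than in any larval one. Its mean was 0.80 percentage points higher in prepupae (exact permutation test, two-sided, p = 0.1, which is the smallest p that 3 against 3 libraries can give).

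Act5C, the cytoplasmic actin with more counts in every library, was higher in prepupal hemocytes. It stood at 26748, 26723 and 25159 CPM in prepupal replicates 1, 2 and 3, against 15905, 18207 and 13259 CPM in larval replicates 1, 2 and 3. The stages did not overlap, which also held for 63.0% of all tested genes (31.2% with the prepupal libraries higher). The prepupal libraries were closer to each other than the larval ones. The means were 26210 ± 911 CPM in prepupal and 15791 ± 2476 CPM in larval hemocytes (SD, n = 3 each). The log2 fold change was 0.73 (standard error 0.16, 95% interval from 0.37 to 1.1, FDR = 0.0042, edgeR), a 1.66-fold higher level. It was larger than that of 85.7% of all tested genes. In sorted bulk samples a changed number of cells of a type and a changed amount of RNA per cell cannot be told apart. The part of a changed cell mix in this difference was not tested. The raw counts behind it were 475671, 539831 and 479145 in the prepupal and 437647, 400780 and 308800 in the larval libraries, so counting error was negligible beside the spread between libraries. Within libraries of the same replicate number the log2 ratio was 0.75, 0.55 and 0.92 for replicates 1, 2 and 3.

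Act42A, the other cytoplasmic actin, moved less and was not called. It stood at 9205, 9051 and 10450 CPM in prepupal replicates 1, 2 and 3, against 8203, 8589 and 7223 CPM in larval replicates 1, 2 and 3. The stages did not overlap on this scale, which also held for 63.0% of all tested genes, but the gap between them was small. The log2 ratios within same-numbered libraries were 0.17, 0.076 and 0.53 for replicates 1, 2 and 3. The means were 9568 ± 767 CPM in prepupal and 8005 ± 704 CPM in larval hemocytes (SD, n = 3 each), and the log2 fold change was 0.26 (standard error 0.14, 95% interval from -0.060 to 0.58, FDR = 0.15, edgeR). As a share of all counts, without TMM factors, Act42A took 0.851%, 0.827% and 1.01% of the prepupal libraries, against 0.870%, 0.899% and 0.798% of the larval ones. On that scale the stages overlapped and the log2 fold change was 0.064. Scaling by total counts moved the median over the tested genes to -0.22, against -0.026 with TMM factors, and gave Act5C a log2 fold change of 0.54 (FDR = 0.0086, edgeR).

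The balance between the cytoplasmic isoforms does not depend on the scaling between libraries. Act5C took 74.4%, 74.7% and 70.7% of the Act5C and Act42A counts in prepupal replicates 1, 2 and 3, against 66.0%, 67.9% and 64.7% in larval replicates 1, 2 and 3. The exact binomial 95% intervals, which cover counting error only, were at most from 70.5% to 70.8% for prepupal replicate 3 and from 64.6% to 64.9% for larval replicate 3. Every prepupal library had a larger share of Act5C than any larval library. The means were 73.3% ± 2.25 in prepupal and 66.2% ± 1.62 in larval hemocytes (SD, n = 3 each), a difference of 7.03 percentage points (exact permutation test, two-sided, p = 0.1, the smallest possible). In terms of counts, there were 2.91, 2.95 and 2.41 Act5C reads per Act42A read in the prepupal libraries, against 1.94, 2.12 and 1.84 in the larval libraries. The summed level of cytoplasmic actin was 35953, 35774 and 35608 CPM in the prepupal libraries, against 24107, 26797 and 20482 CPM in the larval libraries. That sum was 0.60 higher on the log2 scale in prepupae (exact permutation test, two-sided, p = 0.1, the smallest possible).

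**Figure D2:**
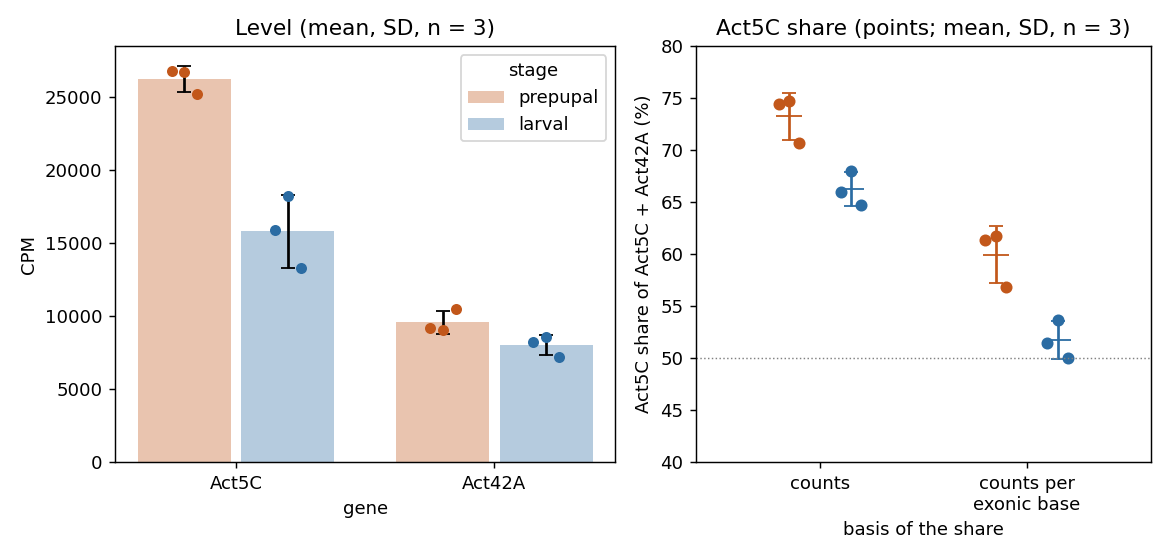
Left, CPM of Act5C and Act42A, with bars at the mean, error bars of 1 SD (n = 3) and 1 point per library. Right, the share of Act5C in the sum of both genes, from counts and from counts per exonic base, with the mean and SD (n = 3); prepupal libraries lie above larval ones in each case, and the larval share per exonic base is near the dotted line at 50%.

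Per kb of exonic length the cytoplasmic genes were closer to each other. Act5C stood at 8982, 8974 and 8448 CPM per kb in the prepupal libraries, against 5341, 6114 and 4452 in the larval ones. Act42A stood at 5661, 5566 and 6427 CPM per kb in the prepupal libraries, against 5045, 5282 and 4442 in the larval ones. By this measure Act5C was above Act42A in every prepupal library without overlap. In larval hemocytes the ranges of the genes overlapped, and in larval replicate 3 they were nearly equal. Act5C took 61.3%, 61.7% and 56.8% of the summed level per exonic base in prepupal replicates 1, 2 and 3, against 51.4%, 53.6% and 50.1% in larval replicates 1, 2 and 3. This level depends on which Act5C transcripts the cells use, since its transcripts differ in length and the counts are per gene. With the shortest annotated transcript of each gene, the mean share of Act5C was 73.1% in prepupal and 66.1% in larval hemocytes. The stage difference was then 7.05 percentage points, against 8.24 with the exonic length. The order of these genes per base also depends on how reads fitting more than 1 actin gene were counted, which is not known. Outside the coding sequence Act5C has 1847 exonic bases and Act42A 495, and the level per base of those was not tested.

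The muscle actins were present only at trace level and none of them was called. Their counts summed to 143, 150 and 169 in prepupal replicates 1, 2 and 3, against 255, 181 and 197 in larval replicates 1, 2 and 3. Of all actin counts, this was 0.0224% (95% interval 0.0188% to 0.0263%), 0.0208% (0.0176% to 0.0244%) and 0.0249% (0.0213% to 0.0290%) in the prepupal libraries. In the larval libraries it was 0.0384% (0.0339% to 0.0434%), 0.0307% (0.0264% to 0.0355%) and 0.0413% (0.0357% to 0.0475%). The share was smaller in every prepupal library than in any larval one, with a mean difference of -0.0141 percentage points (exact permutation test, two-sided, p = 0.1, the smallest possible). The summed level of the muscle actins itself overlapped between the stages, at 8.04, 7.43 and 8.87 CPM in prepupal and 9.27, 8.22 and 8.46 CPM in larval replicates 1, 2 and 3. The difference was -0.094 on the log2 scale (exact permutation test, two-sided, p = 0.4). Under scaling by total counts it was -0.29, with every prepupal library below every larval one (exact permutation test, two-sided, p = 0.1, the smallest possible).

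Act57B, a larval muscle actin, had the highest mean of the muscle genes. It had 69, 71 and 107 counts in prepupal replicates 1, 2 and 3, against 95, 94 and 108 counts in larval replicates 1, 2 and 3. The level was 4.34 ± 1.12 CPM in prepupal and 4.12 ± 0.607 CPM in larval hemocytes (SD, n = 3 each). The log2 fold change was 0.076 (standard error 0.26, 95% interval from -0.51 to 0.66, FDR = 0.82, edgeR) and changed its sign under 5 of the alternatives tried. The log2 ratios within same-numbered libraries, 0.17, -0.28 and 0.28 for replicates 1, 2 and 3, also differed in sign.

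Act79B, an adult muscle actin, had 50, 50 and 25 counts in prepupal replicates 1, 2 and 3, against 142, 61 and 66 counts in larval replicates 1, 2 and 3. On the CPM scale this was 2.20 ± 0.786 in prepupal and 3.59 ± 1.36 in larval hemocytes (SD, n = 3 each). The highest prepupal library, with 2.81 CPM, lay within the larval range, which ran from 2.77 to 5.16 CPM. Within libraries of the same number the log2 ratio was below 0 in all 3 pairs, at -0.88, -0.16 and -1.11 for replicates 1, 2 and 3. The log2 fold change was -0.71 (standard error 0.37, 95% interval from -1.55 to 0.13, FDR = 0.13, edgeR). It was called only in a fit that paired the libraries by replicate number (the replicate block) and also removed each library's trend of counts with gene length (log2 fold change -0.82, FDR = 0.0496, edgeR), and without larval replicate 1, the library with the most counts of this gene, it was -0.34.

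Act87E, the other larval muscle actin, had 16, 29 and 31 counts in prepupal replicates 1, 2 and 3, against 17, 22 and 21 counts in larval replicates 1, 2 and 3. The level was 1.32 ± 0.377 CPM in prepupal and 0.840 ± 0.198 CPM in larval hemocytes (SD, n = 3 each). The stages overlapped, since prepupal replicate 1 (0.900 CPM) lay below larval replicates 2 (0.999 CPM) and 3 (0.902 CPM). Within same-numbered libraries the log2 ratio was above 0 in all 3 pairs, at 0.54, 0.52 and 0.85 for replicates 1, 2 and 3. The log2 fold change was 0.66 (standard error 0.40, 95% interval from -0.22 to 1.55, FDR = 0.18, edgeR). Its size was close to that of Act5C, but with few counts behind it the standard error was larger.

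Act88F, the flight muscle actin, was at the limit of detection. It had 8, 0 and 6 counts in prepupal replicates 1, 2 and 3, against 1, 4 and 2 counts in larval replicates 1, 2 and 3, or 14 against 7 in all. It did not pass the filter on low counts. Tested without that filter, its log2 fold change was 1.29 with a standard error of 1.07 (FDR = 0.40, edgeR), so no stage difference was detectable at this depth.

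Ordered by the mean CPM per kb, the genes followed the same order in both stages: Act5C, Act42A, Act57B, Act79B, Act87E and Act88F. In prepupal hemocytes the means were 8801 ± 306, 5885 ± 472, 2.52 ± 0.652, 1.36 ± 0.486, 0.664 ± 0.190 and 0.160 ± 0.145 CPM per kb (SD, n = 3). In larval hemocytes they were 5302 ± 831, 4923 ± 433, 2.39 ± 0.352, 2.22 ± 0.841, 0.422 ± 0.0997 and 0.0635 ± 0.0463 CPM per kb (SD, n = 3). The libraries of neighbours overlapped for Act79B and Act87E in prepupae, and for Act5C and Act42A as well as for Act57B and Act79B in larvae. The other neighbours were separated in all 3 libraries of the stage, with the widest step between Act42A and Act57B. The order of Act5C and Act42A carries the untested uncertainty of how reads fitting more than 1 actin gene were counted.

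**Figure D3:**
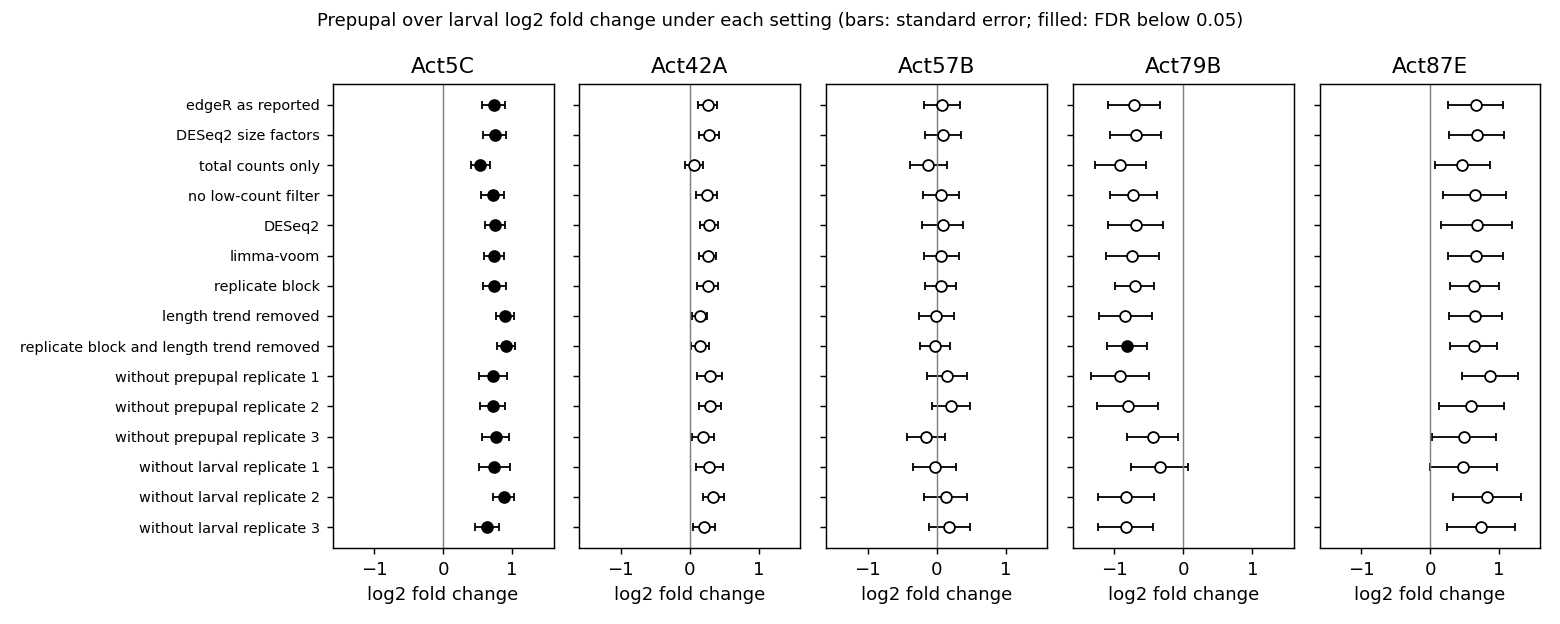
Log2 fold change, prepupal over larval, of the 5 tested actin genes under each setting, with bars of 1 standard error and filled points for an FDR below 0.05. Act5C is filled and above 0 in every row, Act42A is above 0 and open in every row, and Act57B lies on both sides of 0.

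The calls were repeated under other settings, each with its own background. The share of all tested genes called was 53.8% with DESeq2 and also 53.8% with DESeq2 size factors in edgeR, 54.0% with limma-voom, 55.4% with scaling by total counts and 33.4% without the filter on low counts. It was 59.8% with the replicate number as a block, 51.1% with each library's trend of counts against gene length removed, and 52.1% with both together. Act5C was called higher in each of these 8 fits, Act79B was called lower in the last, and no other actin gene was called in any.

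Muscle tissue also expresses other sarcomere genes, and their counts ranged widely. Of 20 muscle markers, 18 had a row in the table and 12 passed the filter on low counts. Mhc, the muscle myosin heavy chain, had 37, 39 and 40 counts in prepupal replicates 1, 2 and 3, against 47, 34 and 57 in larval replicates 1, 2 and 3. Its log2 fold change was 0.10 (FDR = 0.80, edgeR). Mlc2, a muscle myosin light chain, had between 65 and 71 counts in the prepupal libraries and 87 or 88 in the larval ones (log2 fold change -0.018, FDR = 0.95, edgeR). Of the 12 tested markers, Strn-Mlck, a myosin light chain kinase, was called higher at 1.34 on the log2 scale (standard error 0.31, FDR = 0.0052, edgeR), and at 2.21 with the length trend removed. The giant titin-like gene bt was called lower (log2 fold change -2.94, standard error 0.67, FDR = 0.0047, edgeR) and lay at -1.93 with the length trend removed and at -1.74 without larval replicate 3. It had 159, 104 and 150 counts in prepupal replicates 1, 2 and 3, against 1015, 274 and 2763 in larval replicates 1, 2 and 3. The other titin-like gene, sls, had 678, 527 and 672 counts in prepupal replicates 1, 2 and 3, against 1296, 660 and 903 in larval replicates 1, 2 and 3, and at 33.2 ± 6.29 CPM in prepupal and 38.6 ± 8.56 CPM in larval hemocytes (SD, n = 3 each) it made up most of the list without bt. It was not called (-0.22, FDR = 0.35, edgeR), but was called higher with the length trend removed (0.71). In all, 10 of the 12 were not called, while 53.9% of all tested genes were called in either direction. Some of the 10 had few counts, such as Tm2 with 6 to 33 per library. Among the 12, the median was -0.19, against -0.026 for all tested genes. With the length trend removed the median of the 12 was 0.0665, and with the replicate block as well 0.0192. The 20 markers summed to between 46.7 and 63.5 CPM in prepupal and between 57.7 and 174 CPM in larval libraries, and without bt and Strn-Mlck to between 37.8 and 50.1 CPM in prepupal and between 44.0 and 58.9 CPM in larval libraries. The part of stray muscle RNA in the muscle actin counts was not tested.

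**Figure D4:**
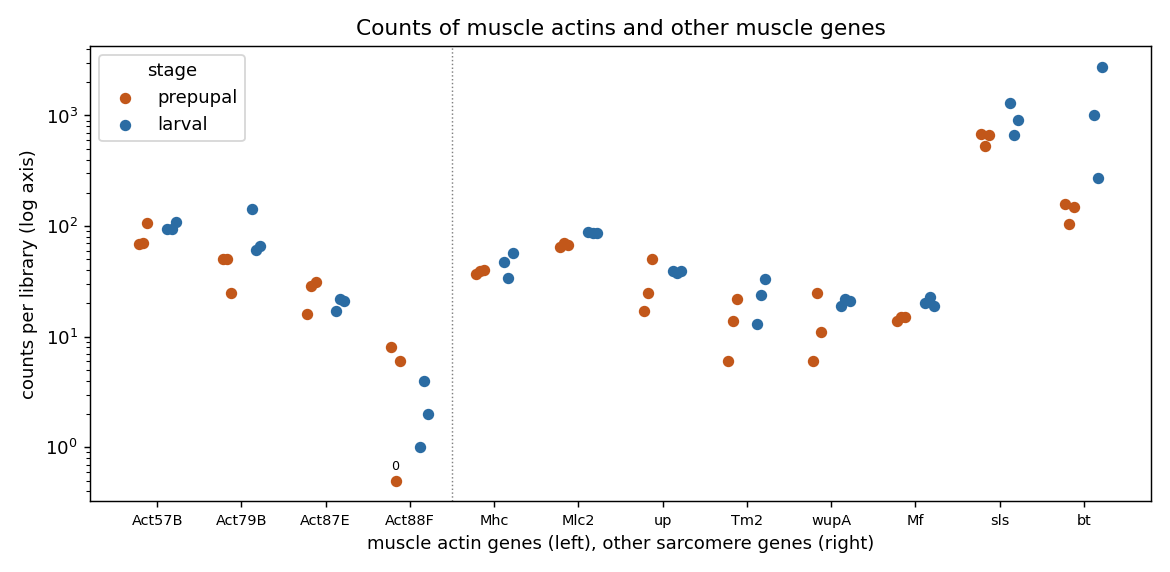
Counts per library, on a log axis, of the 4 muscle actin genes and of 8 other sarcomere genes, with 1 point per library and prepupal left of larval. No library exceeds 142 counts for a muscle actin or Mhc, and the counts of the stages overlap for most genes. For bt the stages are separate, with 104 to 159 counts in prepupal and 274 to 2763 in larval libraries. Those of Act79B, Mlc2 and Mf are also separate in counts, which are not adjusted for library size, but overlap in CPM. The stages of bt do not overlap in CPM either, which also holds for 63.0% of all tested genes. The largest bt count is that of larval replicate 3.

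Actin reaches its folded state with the help of the chaperonin CCT and its partner prefoldin, and the folding genes were mostly higher in prepupae. Of 14 genes, all tested, 11 were called higher and none lower, against 26.6% called higher among all tested genes. The 3 genes that were not called were CCT3 (log2 fold change 0.28, FDR = 0.052), CCT6 (0.17, FDR = 0.19) and CCT7 (0.13, FDR = 0.29, all edgeR). CCT3 lay at the threshold and was called with the replicate block (FDR = 0.023) and under other settings, including the length trend removed (FDR = 0.017). The median log2 fold change was 0.44 for the 8 CCT subunits and 1.0 for the 6 prefoldin subunits, with 0.64 over the 14, against -0.026 for all tested genes. Pfdn4 had the largest value, with 92.1 ± 18.8 CPM in prepupal and 37.9 ± 7.15 CPM in larval hemocytes (SD, n = 3 each) and a difference of 1.28 on the log2 scale (standard error 0.18, FDR = 0.00035, edgeR). CCT4 had the largest value of the CCT subunits, with 658 ± 90.9 CPM in prepupal and 406 ± 39.1 CPM in larval hemocytes (SD, n = 3 each). Its log2 fold change was 0.70 (FDR = 0.0023, edgeR). Removing the length trend of the libraries lowered the median of the prefoldin genes to 0.49 and the value of Pfdn4 to 0.67, took the call from Pfdn2 (0.029), and left the CCT median at 0.45. Under scaling by total counts 9 genes were called, and CCT6 and CCT7 lay below 0. The calls of CCT8 and Pfdn2 were lost in most fits with 1 library left out, namely without prepupal replicate 2 or 3 or larval replicate 1 or 3 for either gene, and for CCT8 also without prepupal replicate 1, with FDR values between 0.054 and 0.16 (edgeR).

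The proteins that bind actin monomers and return them from old filaments form the pool from which filaments grow, and all 6 genes of this list were called higher in prepupae, against 26.6% of all tested genes. Profilin (chic), which delivers monomers to growing ends, stood at 3724 ± 158 CPM in prepupal and 2684 ± 212 CPM in larval hemocytes (SD, n = 3 each), which is 0.47 higher on the log2 scale (standard error 0.13, FDR = 0.011, edgeR). Cofilin (tsr), which severs and disassembles filaments, stood at 2772 ± 367 CPM in prepupal and 1400 ± 172 CPM in larval hemocytes (SD, n = 3 each). On the log2 scale it was 0.99 higher (standard error 0.15, FDR = 0.00055, edgeR), and 0.49 with the length trend removed. The cofilin partner flr had the largest log2 fold change of the 6, at 1.22 (standard error 0.14, FDR = 0.00010, edgeR). Below tsr came twinfilin (twf, 0.90), the cyclase-associated protein capt (0.71) and ciboulot (cib, 0.52), which binds monomers through thymosin repeats. The median of the 6 was 0.80, against -0.026 for all tested genes. Under scaling by total counts chic (0.28) and cib (0.32) were no longer called, and cib also lost its call without prepupal replicate 3 (0.43). None of the 6 genes changed its sign under any scaling tried.

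In mammals, the coactivator MRTF and its partner SRF switch on actin genes and are in turn held back by free actin monomers. The fly gene of the coactivator, Mrtf, was lower in prepupae, with 52.5 ± 12.4 CPM in prepupal and 103 ± 32.3 CPM in larval hemocytes (SD, n = 3 each). It had 1129, 790 and 1045 counts in prepupal replicates 1, 2 and 3, against 3777, 1607 and 2331 in larval replicates 1, 2 and 3. The stages did not overlap in CPM, which also held for 63.0% of all tested genes. On the log2 scale Mrtf fell by 0.98 (standard error 0.24, FDR = 0.0064, edgeR), and the difference was -0.43 (FDR = 0.033) with the length trend removed. The SRF gene bs stood at 15.3 ± 2.05 CPM in prepupal and 17.9 ± 1.53 CPM in larval hemocytes (SD, n = 3 each), and was not called (log2 fold change -0.23, FDR = 0.21, edgeR). Under scaling by total counts bs was called lower (-0.43), and with the length trend removed it lay at 0.11.

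Actin-related proteins share the actin fold but do not form ordinary filaments. Of 7 such genes outside the Arp2/3 complex, 6 were tested and 3 were called higher and none lower, against 26.6% called higher and 53.9% called in either direction among all tested genes. The median log2 fold change was 0.42, against -0.026 for all tested genes. Arp1, the filament of dynactin, stood at 319 ± 32.7 CPM in prepupal and 153 ± 19.0 CPM in larval hemocytes (SD, n = 3 each), which is 1.06 higher on the log2 scale (standard error 0.13, FDR = 0.00017, edgeR). Arp10, also of dynactin, had a log2 fold change of 0.58, and Arp8, of a chromatin remodelling complex, one of 0.53. Arp8 was not called without prepupal replicate 2 or larval replicate 1 (FDR = 0.051 in either case, edgeR) or under scaling by total counts (0.33). Of the genes not called, Bap55 and Arp5, which also belong to chromatin remodelling complexes, lay at 0.056 and -0.17, and under scaling by total counts Bap55 lay at -0.14 and Arp5 was called lower (-0.37). Bap55 was also below 0 with the length trend removed (-0.11). Arp6 lay at 0.30 (FDR = 0.092) and was called with the replicate block (FDR = 0.024) and without larval replicate 2 (FDR = 0.0094, edgeR). With the length trend removed it lay at 0.099 (FDR = 0.45), and with the block as well at 0.10 (FDR = 0.37, edgeR). Arp53D had at most 2 counts in any library.

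**Figure D5:**
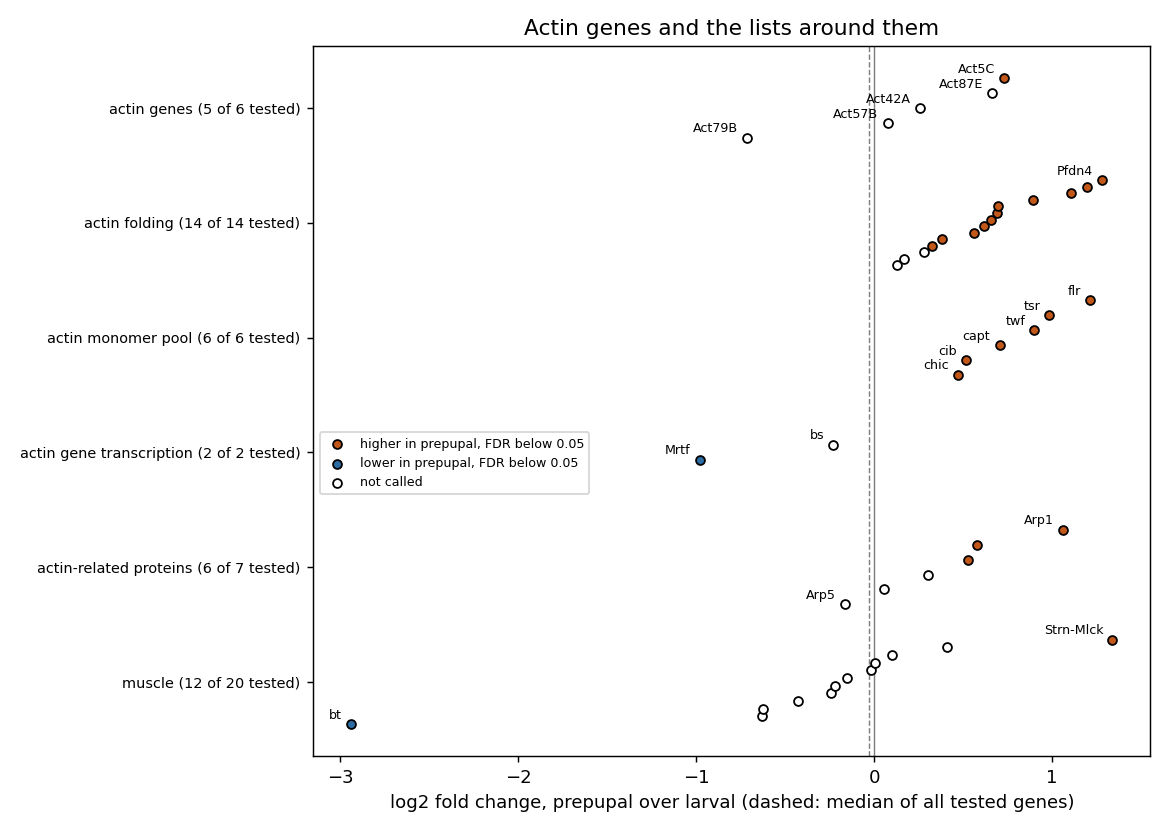
Log2 fold change, prepupal over larval, of the tested genes of each list, with 1 point per gene and colours for genes called at an FDR below 0.05. All 6 monomer pool genes and 11 of 14 folding genes are called higher, against 26.6% of all tested genes. Of 5 tested actin genes 1 is called, but the muscle actins among them had at most 142 counts in a library. The dashed line marks the median of all tested genes at -0.026.

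The genes with the pattern most like that of each actin were sought among 2810 genes whose mean reached 50 CPM, by the Pearson correlation of log2 CPM over the 6 libraries. The points are the same 6 libraries in 2 stages, and the values are descriptive. For Act5C the nearest genes were Tsf3, Sec8 and GstO3, each with r = 0.999. They did not share the size of the change, with log2 fold changes of 1.4, 0.47 and 1.19. For Act42A they were Sema5c (r = 0.994), TBCD (r = 0.986) and mt:ND3 (r = 0.986). For Act79B they were hfp (r = 0.981), stc (r = 0.960) and ZAP3 (r = 0.95), and for Act87E ash2 (r = 0.964), CG3262 (r = 0.962) and CG6178 (r = 0.959). Act57B had no gene as close, with Pat1 (r = 0.848), Ykt6 (r = 0.834) and nrv2 (r = 0.816).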

How the data were processed

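RNA of sorted Hml+ hemocytes from 3 prepupal and 3 larval samples was made into unstranded libraries and sequenced as single reads of 50 bases. After trimming with trimmomatic and alignment to dm6 by STAR under an Ensembl annotation, the authors deposited raw counts per gene, without normalization and with 1 column per library. The labels also list featureCounts, without its settings.

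Counts were tested in R 4.3.3 with edgeR 4.0.16 (filterByExpr with a minimum count of 10, TMM factors, quasi-likelihood F test, Benjamini-Hochberg adjustment). The standard error is the log2 fold change divided by the square root of F. Shares and sums were compared by exact permutation of libraries. Exonic lengths came from Ensembl release 115, in which 99.7% of the 13332 shared genes, and all actin genes, had the deposited coordinates. To remove the length trend, a loess curve (span 0.5) of log2 CPM (prior count 2) against log2 exonic length was computed for every library and entered edgeR as offset. Alternatives used DESeq2 1.42.0 and limma 3.58.1, other scaling factors, no filter, a 2-fold minimum, the replicate number as a block, the length offset, and each library left out. The fits were also run on simulated counts in which few genes were changed. Those counts held no length trend and no replicate effect, so they do not bear on the length offset or the block.

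Each library was expressed relative to the mean of its stage. Over genes, the prepupal and larval libraries sharing a number then had correlations of 0.277 (replicate 1), 0.300 (replicate 2) and 0.102 (replicate 3). Each was above the minimum of 0.1 set here, replicate 3 only just. Libraries with different numbers were not compared, so these values cannot show that libraries sharing a number belong together. No source says what a number stands for, and the block and the ratios within same-numbered libraries rest on that assumed pairing. The reported fit has no block because the methods name none.

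All 6 actin genes are described. Genes of most similar pattern were the 3 with the highest correlation for each tested actin, and list genes are named where their list is reported. The members and lists were chosen with earlier results of these data known.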

Additional observations from a re-analysis of the deposited data

How the results depend on the processing

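Act5C was called higher in prepupae under all 14 other fits, with log2 fold changes from 0.54 to 0.91, and with each library left out from 0.63 to 0.88. Act42A was above 0 and not called in any of 14, from 0.064 to 0.34 (FDR from 0.061 to 0.69). Act87E was not called in any of 14 (0.47 to 0.87), nor Act79B except with the replicate block and the length trend removed together (-0.82), which raised the number of actin genes called to 2. Requiring at least 2-fold lowered it to 0, and the number of called genes in the folding, monomer pool, transcription and actin-related lists from 21 to 5. The share of all tested genes called with that minimum was not computed, so these lower counts have no background. The log2 fold change of Act57B was -0.12 under scaling by total counts, -0.0050 with the length trend removed and -0.025 with the replicate block and the length trend removed, and ran from -0.15 to 0.21 with each library left out. The replicate block alone changed no call of an actin gene (Act5C 0.74, Act42A 0.26). Shares and summed levels kept their direction under every alternative run for them: the Act5C share differed by 6.29 to 8.33 percentage points, the cytoplasmic sum by 0.40 to 0.69 and the muscle actin sum by -0.29 to -0.032 on the log2 scale, and the share of muscle actins by -0.018 to -0.012 percentage points. The share per shortest transcript was chosen after seeing the data. A share per 50-base position found once in the genome was planned and not run, because no genome sequence was used here. Depth limits Act88F and Act87E, with at most 31 counts per library.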
